A study of Mus musculus with 9 samples.

Results

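The genes described here encode 9 RNA-binding proteins that regulate splicing in heart and skeletal muscle: Rbfox1, Rbfox2, Rbm20, Rbm24, Mbnl1, Mbnl2, Celf1, Celf2 and Qk. They were chosen by name, as muscle splicing regulators, out of 19935 genes measured, and each was read at the probe set (a group of array probes summarised to 1 value) that carried its symbol alone and had the highest mean over all 9 arrays. The values that decided the choice of probe set were these means over both genotypes. All 9 were measured, and all lay in the brighter part of the table, above the median probe set. Rbfox1 came to attention through its difference between the genotypes in these same arrays, so it was selected on the very contrast reported, and that difference is given as a description. The others stand beside it for their roles in muscle, and earlier results of these data were known when the list was drawn up.

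The Ezh2-deficient group was 4 adult mice with floxed Ezh2 and the Mef2cAHF::Cre transgene, and the wild-type group was 5 adult mice with floxed Ezh2 and no Cre, all on a mixed C57BL/6 background. The genotype field gives Ezh2f/f for the wild-type mice, whereas their titles give f/wt, and the labels do not settle which holds. Mef2cAHF::Cre uses an enhancer of Mef2c from the anterior heart field that acts in embryonic progenitors of the right ventricle, septum and outflow tract, so cells of other origin in the dissected right ventricle and septum keep Ezh2, and loss of Ezh2 cannot be told apart from the presence of Cre. RNA of each heart was hybridised to 1 Affymetrix array, and values are on the log2 scale, so that a difference of -1 is a halving.

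Splicing regulators bind short motifs in introns and exons near alternative exons and promote or block their use. RBFOX proteins bind GCAUG elements, MBNL proteins and CELF proteins act on many of the same developmental exons and often in opposite directions, RBM20 controls the long repeat exons of titin, RBM24 promotes inclusion of muscle exons, and QK, of the STAR family, acts in muscle, glia and vascular cells. In the mouse heart CELF protein levels decline and MBNL1 activity rises after birth, when many exons switch to the adult form. The arrays give 1 value per gene and do not resolve exons, so the levels of the regulators were measured and the splicing of their targets was not.

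Array medians lay between 7.19 and 7.25, and any 2 arrays correlated across probe sets with a Pearson's r of 0.9897 to 0.9973. The 12 cardiomyocyte markers averaged 13.3 to 13.5 in Ezh2-deficient hearts and 13.5 in all wild-type hearts, well above the array medians. The Ezh2 probe set read 8.94, 8.74, 8.98 and 8.86 in Ezh2-deficient hearts, against 8.89, 8.60, 8.68, 8.81 and 8.66 in wild-type hearts, and limma's adjusted p was 0.485. It did not separate the groups, so directions refer to the groups as labelled. Ezh2-deficient heart 3 stood apart. It was the lowest of all 9 hearts at 8 of the 9 regulators, against 27.0% of the 10711 genes above the median, and its 3 erythrocyte markers averaged 8.83, against 7.47 to 7.56 in the other Ezh2-deficient hearts and 6.95 to 7.69 in wild-type hearts. Differences are therefore also given without that heart, called heart 3 in the following. Over the whole table heart 3 stood apart on the second principal component (24.0% of the variance) and wild-type hearts 4 and 5 on the first (30.7%), and Rbfox1 differed by -0.47 without wild-type hearts 4 and 5. By 3 Y-linked genes, 2 Ezh2-deficient hearts (1 and 3) and 1 wild-type heart (4) came from females.

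Rbfox1 was lower in every Ezh2-deficient heart than in any wild-type heart. It read 8.24, 8.35, 8.28 and 8.47 in Ezh2-deficient hearts, against 8.74, 8.92, 8.76, 8.83 and 9.003 in wild-type hearts. The groups were separated by a gap of 0.26 and no heart lay far from its group. The means were 8.34 ± 0.10 (SD, n = 4) in Ezh2-deficient hearts and 8.85 ± 0.11 (SD, n = 5) in wild-type hearts. The difference of -0.52 (SE 0.07, 95% interval -0.67 to -0.36) puts Ezh2-deficient hearts at 0.70 of the wild-type level, with an interval from 0.63 to 0.78. In the limma fit over 28815 probe sets its adjusted p was 0.0501, just outside the threshold of 0.05, and 12 probe sets had a smaller p. That value is part of why the gene was chosen and supports nothing further.

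The Rbfox1 difference did not rest on Ezh2-deficient heart 3. It was -0.50 without that heart (limma adjusted p = 0.108) and between -0.56 and -0.48 with each heart left out in turn. The sample titles carry a letter e or x whose meaning the labels do not give. Among hearts with letter e (2 against 2) the difference was -0.47 (limma adjusted p = 0.651). Among those with letter x (2 against 3) it was -0.55 (limma adjusted p = 0.258). With the Y-linked mean as a covariate it was -0.49. All these values come from the arrays on which Rbfox1 was selected, so they describe the difference and add no support for it. In bulk tissue, fewer cells of a type and less RNA per cell cannot be told apart.

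RefSeq lists 2 start sites of Rbfox1 among its promoter windows (250 bases before to 50 after the start, build GRCm38.p6), and the array does not tell which is used. The windows are shown because Polycomb complexes in mammals are found mostly at CpG-rich promoters, and CG dinucleotides are in capitals. The arrays do not measure Polycomb binding, and a link between CG content and the differences was not tested.

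Rbfox1 at chr16:5884543-5884842, plus strand: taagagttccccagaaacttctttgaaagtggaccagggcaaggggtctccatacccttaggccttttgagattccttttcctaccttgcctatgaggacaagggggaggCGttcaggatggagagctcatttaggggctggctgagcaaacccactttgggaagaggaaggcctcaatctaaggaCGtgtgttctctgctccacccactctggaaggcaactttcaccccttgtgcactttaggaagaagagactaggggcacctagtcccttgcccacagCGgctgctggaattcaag
Rbfox1 at chr16:7069585-7069884, plus strand: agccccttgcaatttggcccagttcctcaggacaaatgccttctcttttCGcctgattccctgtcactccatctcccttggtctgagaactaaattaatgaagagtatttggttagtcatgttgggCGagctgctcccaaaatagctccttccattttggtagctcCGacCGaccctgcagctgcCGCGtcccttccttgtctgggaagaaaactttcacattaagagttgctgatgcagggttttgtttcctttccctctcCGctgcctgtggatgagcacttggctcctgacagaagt

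The upstream window holds 3 CG dinucleotides and the downstream one 7, where the median over all 32851 windows is 7. At least 3 were present in 76.7% of windows and at least 7 in 52.1%.

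**Figure D1:**
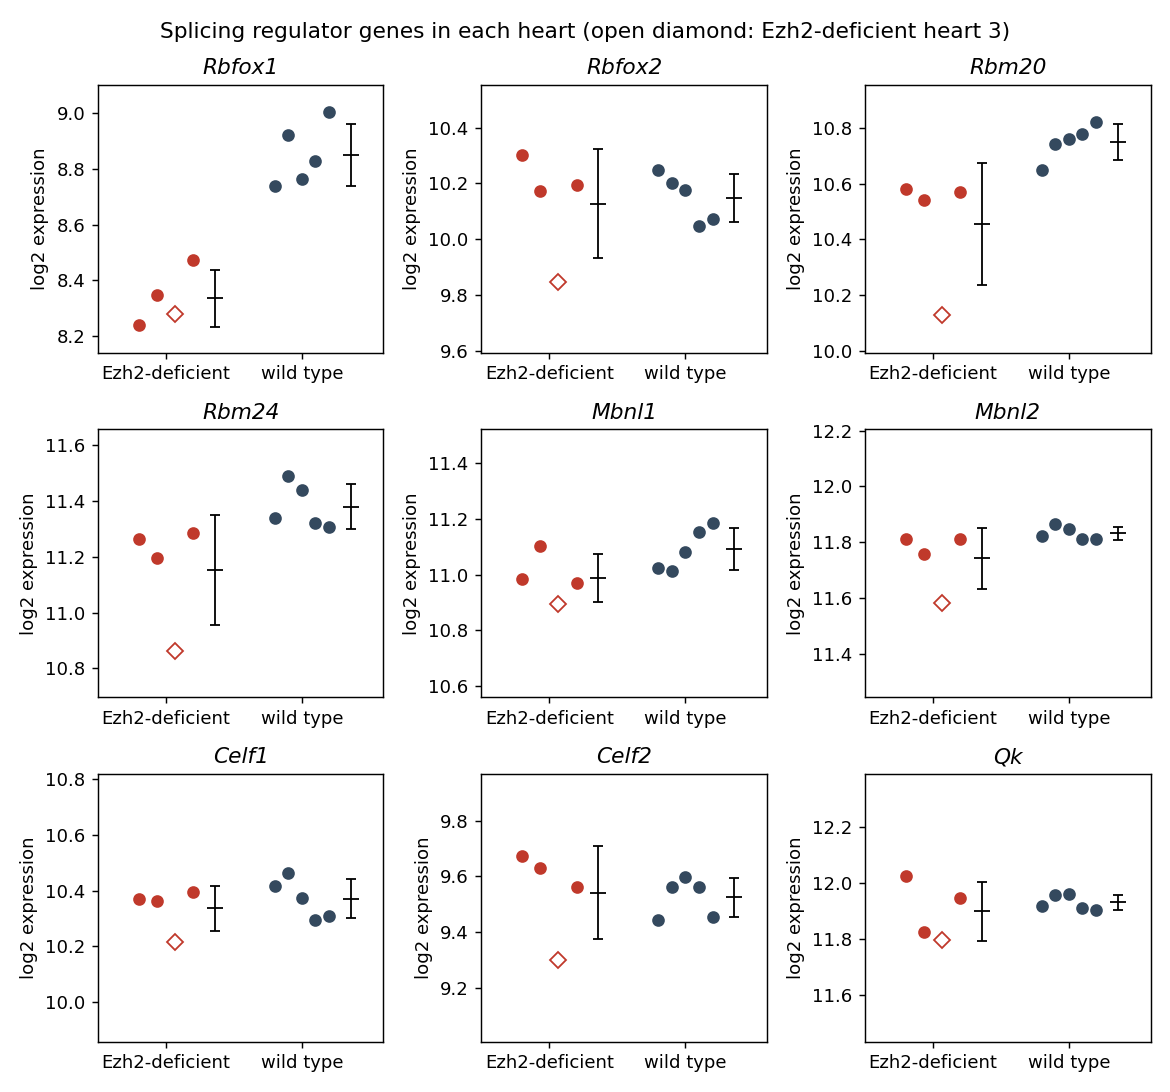
Log2 expression of the 9 splicing regulators, with Ezh2-deficient hearts (n = 4, red) left and wild-type hearts (n = 5, dark) right; each point is 1 heart, the bars are mean and SD, and all panels span the same log2 range at different positions. Rbfox1 is the panel with the widest gap between the groups, and the open diamond, Ezh2-deficient heart 3, is the lowest point of all 9 hearts in every panel but that of Rbfox1.

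Rbfox2, the broadly expressed paralogue of Rbfox1, overlapped between the groups. It read 10.30, 10.17, 9.85 and 10.19 in Ezh2-deficient hearts, against 10.25, 10.20, 10.18, 10.05 and 10.07 in wild-type hearts. Heart 3 lay below all other hearts and Ezh2-deficient heart 1 above them. The difference was -0.02 (SE 0.09, 95% interval -0.22 to 0.18, limma adjusted p = 0.96) and 0.07 without heart 3. Taken within each array, the log2 value of Rbfox1 minus that of Rbfox2 averaged -1.79 ± 0.21 (SD, n = 4) in Ezh2-deficient hearts and -1.30 ± 0.17 (SD, n = 5) in wild-type hearts. This ratio was lower in all 4 Ezh2-deficient hearts than in any wild-type heart, a description that again rests on the Rbfox1 values. The ratio carries the difference for which Rbfox1 was selected, so it adds no support for unequal change of the paralogues. Nor does it show that Rbfox2 stayed level.

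Rbm20 was lower in every Ezh2-deficient heart, but the size of the difference depended on 1 heart. Mutations of its gene cause dilated cardiomyopathy in humans, and titin is its best-known target. It read 10.58, 10.54, 10.13 and 10.57 in Ezh2-deficient hearts, against 10.65, 10.74, 10.76, 10.78 and 10.82 in wild-type hearts. Ezh2-deficient heart 3 lay about 0.4 below the others of its group, which kept close together and ended 0.067 below the lowest wild-type heart. The difference was -0.29 (SE 0.09, 95% interval -0.50 to -0.09), or 0.82 of the wild-type level, and did not pass limma's test (adjusted p = 0.304). Without heart 3 it was -0.19 (SE 0.05, adjusted p = 0.283). Hearts with letter e differed by -0.12 and those with letter x, which include heart 3, by -0.45.

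Rbm24, needed for sarcomere assembly in the embryonic mouse heart, had the same pattern with a narrower gap. It read 11.26, 11.20, 10.86 and 11.29 in Ezh2-deficient hearts, against 11.34, 11.49, 11.44, 11.32 and 11.31 in wild-type hearts. The groups were 0.019 apart, which is less than the SD of 0.08 among wild-type hearts. The difference was -0.23 (SE 0.09, 95% interval -0.42 to -0.03, limma adjusted p = 0.391) and -0.13 without heart 3. Exact two-sided permutation tests of the 8 regulators other than Rbfox1 gave an unadjusted p = 0.00794 for Rbm20 and for Rbm24. The same tests gave 0.0476 for Mbnl2, 0.0952 for Mbnl1 and 0.492 to 0.873 for the rest. The value 0.00794 is the smallest that 126 assignments allow, and groups that do not overlap receive it. Of all probe sets 1.91% did not overlap and were lower in Ezh2-deficient hearts. Earlier results of this contrast were known when the list was drawn up, so nothing is read from these p-values. The promoter window of Rbm24 is shown for contrast with those of Rbfox1, with CG in capitals as before.

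Rbm24 at chr13:46418050-46418349, plus strand: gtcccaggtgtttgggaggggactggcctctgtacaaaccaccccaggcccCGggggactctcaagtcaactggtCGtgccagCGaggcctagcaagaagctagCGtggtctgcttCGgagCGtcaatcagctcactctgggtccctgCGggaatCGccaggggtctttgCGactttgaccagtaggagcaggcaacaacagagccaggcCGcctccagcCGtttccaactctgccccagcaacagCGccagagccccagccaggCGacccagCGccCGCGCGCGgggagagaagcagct

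It holds 18 CG dinucleotides, a number that 29.7% of all windows reach, so the 2 genes whose windows are shown differ in this feature. Of the 9 regulators 7 had windows, 13 in all, and 7 of the 13 held more CG than the median window. The range ran from 2 at the upstream start of Mbnl1 to 57 at Qk, with 34 at Celf1 and 48 at the richest of 5 starts of Celf2.

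Mbnl1 and Mbnl2 encode zinc finger proteins that are sequestered by expanded CUG repeats in myotonic dystrophy. Mbnl1 read 10.98, 11.10, 10.90 and 10.97 in Ezh2-deficient hearts, against 11.03, 11.01, 11.08, 11.15 and 11.19 in wild-type hearts. Ezh2-deficient heart 2 lay inside the wild-type range and the other 3 below it. The difference was -0.10 (SE 0.06, 95% interval -0.23 to 0.02, limma adjusted p = 0.55), and -0.07 without heart 3. Mbnl2 read 11.81, 11.76, 11.58 and 11.81 in Ezh2-deficient hearts, against 11.82, 11.87, 11.85, 11.81 and 11.81 in wild-type hearts. Ezh2-deficient hearts 1 and 4 and wild-type hearts 4 and 5 shared exactly 11.813, as happens with the median polish of the authors' method, so only 6 values are distinct. The Mbnl2 difference was -0.09 (SE 0.05, 95% interval -0.21 to 0.03, limma adjusted p = 0.579), and -0.04 without heart 3. The log2 ratio of Mbnl1 to Mbnl2 within arrays averaged -0.75 ± 0.10 (SD, n = 4) in Ezh2-deficient hearts and -0.74 ± 0.09 (SD, n = 5) in wild-type hearts. These did not differ beyond the spread (exact two-sided permutation p = 0.833, and 0.833 adjusted over the 2 paralogue pairs tested).

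Celf1, Celf2 and Qk also overlapped between the groups. Celf1 read 10.2 to 10.4 (median 10.37) in Ezh2-deficient hearts, against 10.3 to 10.5 (median 10.37) in wild-type hearts. Its difference was -0.04 (SE 0.05, 95% interval -0.16 to 0.09, limma adjusted p = 0.85), or 0.0048 without heart 3, and a dimmer second probe set differed by -0.14 (SE 0.07, adjusted p = 0.492), or by -0.07 without heart 3. Celf2 read 9.67, 9.63, 9.30 and 9.56 in Ezh2-deficient hearts, against 9.44, 9.56, 9.60, 9.56 and 9.46 in wild-type hearts. It was the only regulator with a higher mean in Ezh2-deficient hearts, by 0.02 (SE 0.08, 95% interval -0.15 to 0.19), and by 0.10 without heart 3. Its second probe set, below every array median, had a difference of -0.13 (SE 0.14), or 0.03 without heart 3, so the sign of Celf2 is not settled. The Celf1 to Celf2 ratio within arrays differed by -0.05 between the groups (exact two-sided permutation p = 0.421, adjusted p = 0.833), and by -0.09 to -0.02 with each heart left out in turn. Qk read 11.8 to 12.0 in Ezh2-deficient hearts, against 11.9 to 12.0 in wild-type hearts, a difference of -0.03 (SE 0.05, 95% interval -0.15 to 0.09), or 0.002 without heart 3. Its 2 further probe sets differed by 0.05 and -0.01, and by -0.02 and -0.04 without heart 3.

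**Figure D2:**
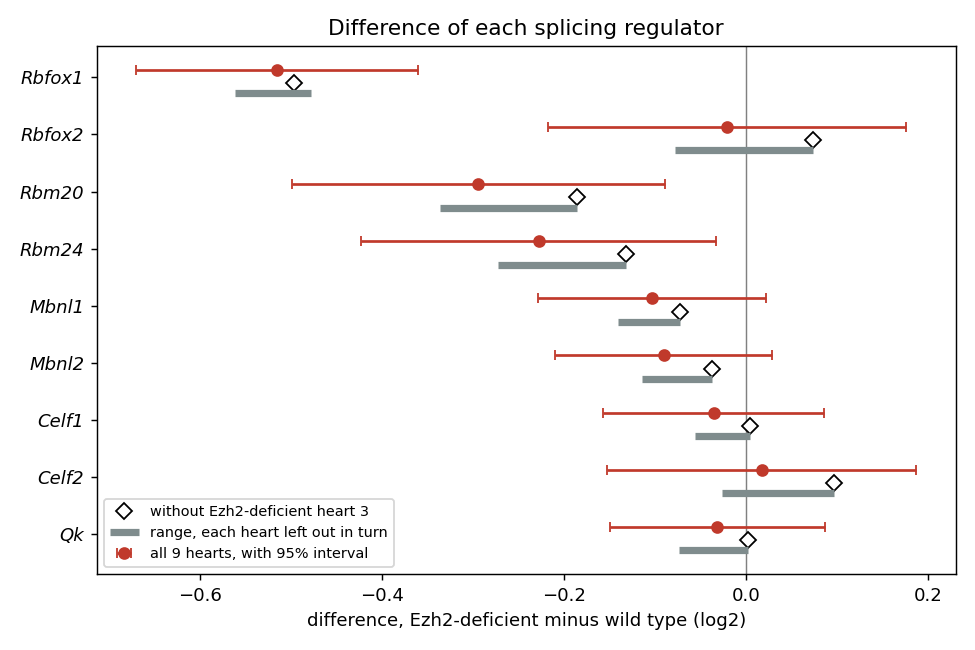
Difference of each regulator on the log2 scale, Ezh2-deficient minus wild type, with 95% intervals from limma on 4 against 5 hearts (red), the value without Ezh2-deficient heart 3 (open diamonds) and the range with each heart left out in turn (grey bars). Rbfox1 stays between -0.56 and -0.48 with each heart left out in turn. All 9 regulators move towards higher values when heart 3 is left out, Rbfox1 from -0.52 to -0.50.

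By limma 0 of the 9 regulators passed an adjusted p of 0.05, where 0.0347% of all probe sets did, and 3 had an unadjusted p under 0.05, where 10.7% of probe sets did. The means of 8 were lower in Ezh2-deficient hearts, against 52.9% of all probe sets. The groups did not overlap for 3 (Rbfox1, Rbm20 and Rbm24), all lower, against 1.91% of probe sets. Since earlier results of this contrast were known when the list was drawn up, nothing is read from these shares. The median difference of the 9 was -0.09, beside -0.0034 over all genes. Without heart 3 it was -0.04, and 5 of the 9 then had a lower mean.

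The hearts varied together at most of these genes, and heart 3 carried much of that. Among the 36 pairs of regulators, the deviations of the 9 hearts from their group means correlated with a median Pearson's r of 0.62, and 31 pairs were above 0. Without heart 3 the median r was 0.12, with 21 pairs above 0. Rbm24 and Mbnl2 still varied together, with r = 0.98 over 9 hearts and 0.92 over 8. Mbnl1 ran against Rbfox2 (r = -0.83), Celf1 (r = -0.85) and its paralogue Mbnl2 (r = -0.82) over the 8 hearts. Over all 9 hearts the r of these pairs was 0.06, -0.18 and 0.24, so the strong opposition appeared only without heart 3. The deviations of Rbfox1 followed those of Rbm20 most closely (r = 0.38, and 0.53 without heart 3) and those of Rbfox2 least (r = -0.10 and -0.58). These correlations are descriptions over hearts that share arrays and normalization. No share over pairs of other genes stands beside them, so nothing particular to the regulators is read from them.

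**Figure D3:**
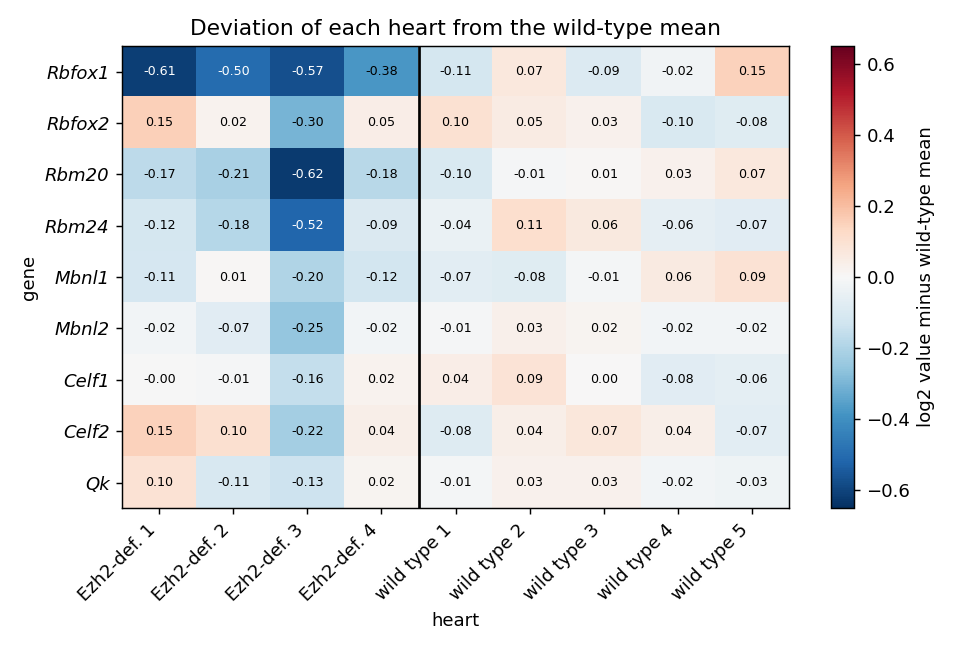
Log2 value of each regulator in each heart minus the wild-type mean of that gene, with the 4 Ezh2-deficient hearts left of the line and the 5 wild-type hearts right of it. Rbfox1 (-0.61 to -0.38), Rbm20 (-0.62 to -0.17) and Rbm24 (-0.52 to -0.09) lie below every wild-type heart in all 4 Ezh2-deficient hearts. Every regulator but Rbfox1 has its lowest value in Ezh2-deficient heart 3.

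Genes whose values most resembled Rbfox1 were found by Pearson's r over the 9 arrays among genes above the median. Dsg2, a desmosomal cadherin of the intercalated disc, had r = 0.98 and a difference of -0.45 (limma adjusted p = 0.0845). It was followed by Gcdh, the glutaryl-CoA dehydrogenase of lysine breakdown (r = 0.97, difference -0.41), Smco1 (r = 0.97, -0.49), Arhgap10 (r = 0.97, -0.16), and Bzw2 (r = 0.97, -0.17). Their resemblance includes the step between genotypes. By deviations from the group means, which leave that step out, the closest were Rilp (r = 0.92), Ldhd, a D-lactate dehydrogenase (r = 0.90), Arl2, a small GTPase (r = 0.90), Flvcr2 (r = 0.90) and Fbxo21 (r = 0.89). None of the 10 genes passed limma's test. They were picked for the highest r among the 10711 genes above the median, over only 9 arrays. How high r would run among unrelated genes was not tested. Of the other regulators Rbm20 had the highest r with Rbfox1 over the 9 values (0.78) and Celf2 the lowest (-0.08).

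The related RNA-binding protein genes, 12 of 12 measured, had no member past limma's threshold. An unadjusted p under 0.05 was found for 1 of them, against 10.7% of all probe sets. The means of 6 were lower and those of 6 higher, with a median difference of -0.0091. Rbfox3, the neuronal paralogue of Rbfox1, read 6.62 ± 0.09 (SD, n = 4) in Ezh2-deficient hearts and 6.55 ± 0.04 (SD, n = 5) in wild-type hearts, below every array median, and its difference of 0.08 was 0.03 without heart 3. Khdrbs3, a STAR-family relative of Qk, was the member with the smallest p. It read 9.11, 8.98, 8.85 and 9.23 in Ezh2-deficient hearts, against 9.37, 9.39, 9.41, 9.30 and 9.37 in wild-type hearts. Its groups did not overlap, and Khdrbs3 differed by -0.33 (SE 0.07, limma adjusted p = 0.151), or by -0.26 without heart 3. Rbm38, the paralogue of Rbm24, differed by -0.15 (SE 0.07, adjusted p = 0.509), or by -0.07 without heart 3.

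Splicing factors outside the muscle regulators were examined next. Over 7 lists, which include the related genes above and the splicing targets described last, 131 of 142 genes were measured. Limma called 0 of them and 16 had an unadjusted p under 0.05, 10 of which were splicing targets, against 10.7% of probe sets. The core spliceosome (28 of 29 measured) had a median of -0.02, 16 genes with a lower and 12 with a higher mean, and Prpf19, a ubiquitin ligase of the activated spliceosome, had the smallest p (difference -0.19, SE 0.06, adjusted p = 0.305). The hnRNP proteins (25 of 28) had a median of -0.0012 with 13 lower and 12 higher. Among them Ptbp2 differed by -0.19 (SE 0.08) and Ptbp3 by 0.18 (SE 0.10), both repressors related to PTB. The Ptbp3 difference was 0.12 without heart 3 and 0.12 without wild-type heart 5.

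SR proteins, which bind exonic enhancers, had 8 of 12 members with a lower mean and a median of -0.07, which was 0.0091 without heart 3. All 6 measured SR protein kinases had a lower mean, with a median of -0.12, and -0.05 without heart 3. Clk4 differed by -0.33 (SE 0.14, limma adjusted p = 0.43), a value that was -0.04 for letter e and -0.53 for letter x. Of the other tissue regulators 20 of 21 had a lower mean (median -0.08, and -0.05 without heart 3), with Rbm25 at -0.22 (SE 0.09, and -0.14 without heart 3) and Fxr2 at -0.10 (SE 0.04). Heart 3 was the lowest of all hearts at 9 of the 12 SR proteins, 6 of the 6 kinases and 11 of the 21 other regulators.

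Genes whose transcripts the regulators are known to splice in heart or skeletal muscle were read at the level of the whole gene. Of 27 measured (30 listed), 0 passed limma's test, 19 had a lower and 8 a higher mean, and the median was -0.09 with all hearts and 0.0015 without heart 3, the lowest heart at 19 of the 27. Unadjusted, 6 lower and 4 higher had a p under 0.05, against 10.7% of all probe sets in either direction. Over all genes heart 3 was the lowest at 18.0%. Fhod3, a formin of the sarcomere, read 10.11, 10.06, 9.87 and 10.28 in Ezh2-deficient hearts, against 10.50, 10.49, 10.45, 10.35 and 10.58 in wild-type hearts. Its groups did not overlap, and the difference of -0.40 (SE 0.08, adjusted p = 0.129) was -0.33 without heart 3. Clcn1, the muscle chloride channel, differed by -0.45 (SE 0.10, adjusted p = 0.149), or by -0.37 without heart 3. Its means were 7.32 in Ezh2-deficient hearts, close to the array medians, and 7.77 in wild-type hearts. The Clcn1 difference was -0.18 for letter e and -0.65 for letter x.

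Pdlim3, a Z-disc PDZ-LIM protein, went the other way. It read 9.83, 9.90, 9.17 and 9.50 in Ezh2-deficient hearts, against 9.07, 9.08, 8.99, 8.92 and 8.996 in wild-type hearts. Every Ezh2-deficient heart was above every wild-type heart, with heart 3 the closest to them, and they differed by 0.59 (SE 0.13, limma adjusted p = 0.157), or by 0.73 without heart 3. Titin (Ttn), the best-known RBM20 target, read 13.31, 13.21, 12.52 and 13.25 in Ezh2-deficient hearts, against 13.26, 13.31, 13.28, 13.09 and 13.14 in wild-type hearts. Its difference was -0.14 (SE 0.15, adjusted p = 0.761) and 0.04 without heart 3. Titin was added to the named genes after its values were seen.

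**Figure D4:**
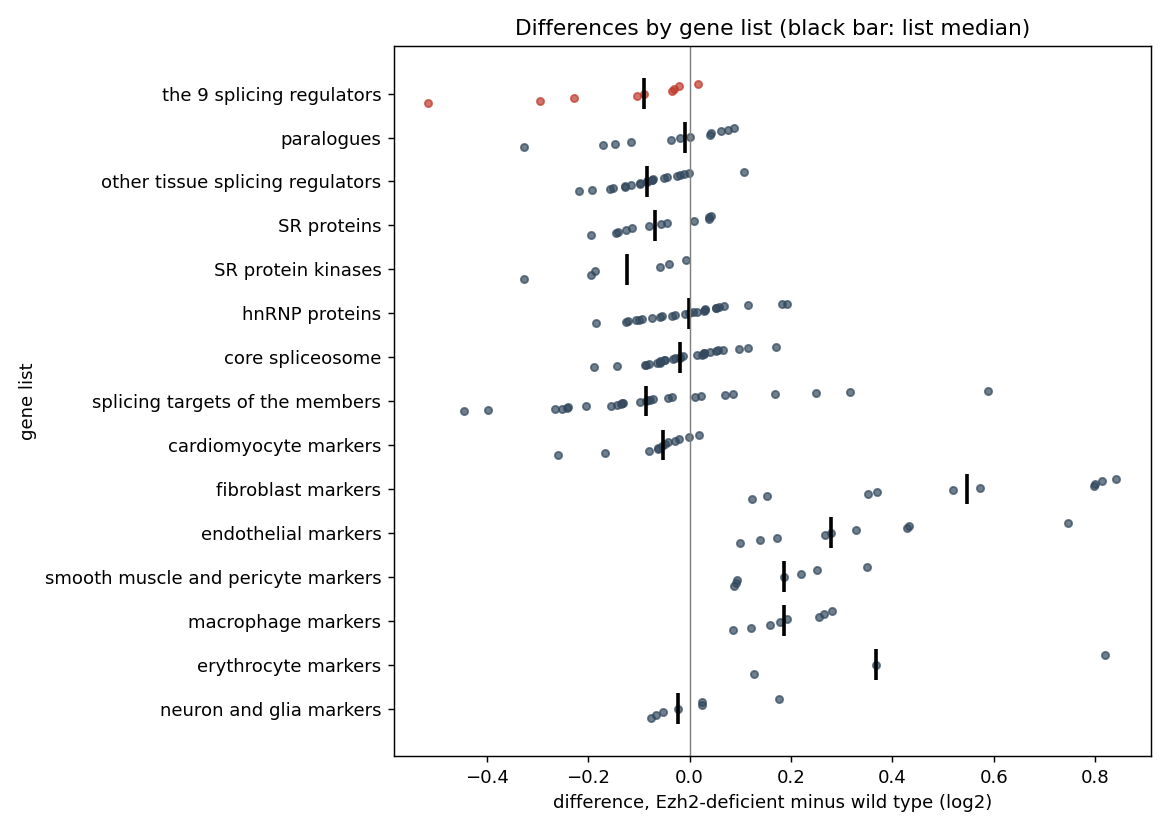
Difference of every measured gene on the log2 scale, Ezh2-deficient minus wild type, by list, with list medians as black bars; points are genes, not replicates. The 9 regulators (red) have a median of -0.09 with Rbfox1 far left at -0.52, and the fibroblast markers have a median of 0.55.

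Marker genes of other cell types also differed in mean between the groups, though none passed limma's test. All 10 fibroblast markers had a higher mean (median 0.55), with heart averages of 10.84 to 11.13 in Ezh2-deficient hearts and 10.10 to 10.76 in wild-type hearts. Mfap5 differed by 0.80 (SE 0.15, limma adjusted p = 0.128). All 9 endothelial markers had a higher mean (median 0.28), led by Vwf (0.75, SE 0.17) and Eng (0.43, SE 0.10). Their heart averages overlapped, at 10.43 to 10.58 in Ezh2-deficient hearts and 9.84 to 10.44 in wild-type hearts. The 7 smooth muscle and pericyte markers had a median of 0.19 (averages of 9.43 to 9.76 in Ezh2-deficient hearts and 9.13 to 9.53 in wild-type hearts), with Pdgfrb at 0.25 (SE 0.13, and 0.15 without wild-type heart 5). The 8 macrophage markers also had a median of 0.19 (8.59 to 8.94 in Ezh2-deficient hearts and 8.28 to 8.71 in wild-type hearts), with Cd163 at 0.28 (SE 0.14, and 0.11 without Ezh2-deficient heart 2).

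Of the 12 cardiomyocyte markers 11 had a lower mean, with a median of -0.05 and a range from -0.26 (Tcap) to 0.02 (Actc1), and Tnni3 differed by -0.17 (SE 0.04, limma adjusted p = 0.239). Beside these, Rbfox1 differed by -0.52, Rbm20 by -0.29 and Rbm24 by -0.23. The 7 neuron and glia markers, fixed because Rbfox1 and CELF genes are also expressed in neurons, had a median of -0.02 and averaged 6.07 to 6.18 in Ezh2-deficient hearts and 6.04 to 6.18 in wild-type hearts, below every array median. The 3 measured erythrocyte markers had a median of 0.37, and 0.07 without heart 3. In none of these lists did a gene pass limma's test. Those with an unadjusted p under 0.05 were 7 of 10 fibroblast, 3 of 9 endothelial and 1 of 12 cardiomyocyte markers. Of all probe sets 10.7% had such a p. Without heart 3 the medians were 0.49 for fibroblast, 0.28 for endothelial, 0.27 for smooth muscle and pericyte, 0.14 for macrophage and -0.02 for cardiomyocyte markers. The part of the cell-type markers in the differences of the splicing regulators was not tested.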

How the data were processed

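Per the submitters' processing notes, the authors made the deposited log2 values, 1 per probe set and array, with Affymetrix Power Tools and RMA; their versions were not given in the sources used here. The log2 scale was read from the range of the values, 2.18 to 15.0, and from the method's name. The table held 28815 probe sets, 9 arrays and 0 other sample columns, and no detection call. Gene names came from GEO's platform annotation, with symbols updated by gene identifier for 21689 of 21780 with 1 symbol (1605 had several, 5430 none).

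Ezh2-deficient and wild-type hearts were compared with limma 3.58.1 in R 4.3.3 (lmFit and eBayes, genotype as the only term, two-sided, Benjamini-Hochberg over all probe sets, threshold 0.05) and single values by exact permutation over 126 assignments (scipy 1.17.1). Number of arrays limits the precision: the median SE of a difference was 0.067. The labels speak of separate mice, and replicates were numbered in sample order.

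The members and lists were chosen with earlier results of these data known. Named genes were all members and Ezh2, up to 3 genes with the smallest p per splicing list, up to 2 per marker list, and 5 genes by each measure of likeness to Rbfox1. Lists are described by counts and medians, with no set test. Promoter sequences are from RefSeq (GRCm38.p6).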

Additional observations from a re-analysis of the deposited data

Results flagged for a closer look

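Rbm20 in Ezh2-deficient heart 3 read 10.128 (10.13), against 10.54 to 10.58 in the other 3 Ezh2-deficient hearts. Its gap to the nearest heart was 0.909 of the range of the group, above Dixon's critical value for 4 samples. It was 1 of 18 groups of hearts examined, 2 for each of the 9 regulators, and chance gives about 1 in 20. Across all genes heart 3 was such a low value among the Ezh2-deficient hearts at 3.65%. This share counts heart 3 alone and the low end alone. The 1 in 20 counts any heart of a group at either end, so the shares cannot be compared. Without heart 3 the Rbm20 difference was -0.19 in place of -0.29.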

How the results depend on the processing

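Over 19 alternatives Rbfox1 kept its negative sign (-0.56 to -0.46) and limma's adjusted p ran from 0.0338 to 0.651. It passed with array weights (-0.46, adjusted p = 0.0476), arrays centred on their medians (-0.53, 0.0469) and dim probe sets left out (-0.52, 0.0338, with fewer probe sets tested). Leaving out each heart gave -0.56 to -0.48, and it passed without Ezh2-deficient heart 4 (0.0491). Regulators past the threshold therefore numbered 1 in place of 0 under those 3 settings, and 0 to 1 with a heart left out. Every such pass was that of Rbfox1. The gene was selected on this same contrast in these arrays, so the passes support nothing further. Rbm20, Rbm24, Mbnl1 and Mbnl2 stayed below 0 under all 19, and none of them passed.

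The sign turned for the following. Rbfox2 was 0.0063 with the Y-linked covariate, 0.0223 with array weights and 0.024 within letter e, and ran from -0.0784 to 0.0736 with a heart left out. Celf1 ran from -0.0559 to 0.0048 with a heart left out. Celf2 was -0.0735 within letter x, -0.134 at its second probe set and -0.0582 as a mean of both, and ran from -0.0266 to 0.0971 with a heart left out. Qk was 0.048 within letter e, 0.0468 at a second probe set and 0.0011 as a mean of its probe sets, and ran from -0.074 to 0.002 with a heart left out. Ttn, -0.14 with all hearts, ran from -0.225 to 0.0415 with a heart left out. The Mbnl1 to Mbnl2 ratio was 0.0128 within letter x and ran from -0.0449 to 0.0164; the Celf1 to Celf2 ratio was 0.036 within letter x. Rbm25, -0.22 with all hearts, was 0.0315 within letter e. The cause was not tested.

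Over all probe sets 10 passed; 3 did with the Y-linked covariate, 37 with array weights, 17 with centred arrays, 17 with dim probe sets left out, 17 with the title letter as a block, 0 in either letter alone, 5 when wild-type arrays 4 and 5 were left out (chosen after seeing the data) and 3 to 15 with a heart left out. List medians moved by more than the wild-type spread in 33 of 265 recomputations, 9 of them within letter e and 8 within letter x. No paired analysis was possible because the replicate numbers are only the order of the samples.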
